A study of Mus musculus with 18 samples.

Results

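The insulin-like growth factor (IGF) axis was followed through the epithelium of the mouse mammary gland with 10 genes chosen by symbol, of 46257 genes in the deposited table. They were the ligand gene Igf1, the receptor genes Igf1r, Igf2r and Insr, and the binding protein genes Igfbp2, Igfbp3, Igfbp4, Igfbp5, Igfbp6 and Igfbp7. All 10 were found, each in 1 row, and all 10 passed the filter on low values. RNA was sequenced from basal cells, which wrap the ducts and contract, from luminal cells with the estrogen receptor (ER+), the hormone-sensing cells of the inner layer, and from luminal cells without it (ER-), among them the precursors of the milk-making alveolar cells. Each population was isolated by FACS at puberty, in adults and in mid pregnancy, which gave 9 groups of 2 libraries. All groups shared the genotype ERrtTA/TetOCre/rosaYFP, a tetracycline-controlled Cre with a fluorescent reporter. The sources used here do not give ages, sorting gates, any doxycycline treatment or the number of animals per library. They also do not say that replicates came from different mice, and the p-values below therefore reflect only how far these libraries varied, which may be technical.

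IGF1 is a secreted growth factor that binds the IGF1 receptor, a tyrosine kinase related to the insulin receptor. The IGF2 receptor has no kinase and carries IGF2 to the lysosome for breakdown. Binding proteins hold IGFs outside the cell and either keep them from the receptor or deliver them, and proteases such as PAPP-A release the growth factor again. In the mammary gland, IGF1 made in the stroma serves growth of the ducts under growth hormone, and IGFBP5 is known for its rise when the gland regresses after lactation.

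Values below were read as read counts that the authors scaled to a common library total of about 20000000. They are given for replicate 1 and replicate 2 in that order. By that reading, reads in genes ran from 2406265 to 11292250 per library, so that 1 read was worth 1.754 to 8.247. Within each stage the estrogen receptor gene Esr1 was higher in both ER+ libraries than in both ER- libraries. The pregnancy ER+ libraries had 5666 and 2096 of Esr1 and 4329 and 11434 of Elf5, a factor of ER- luminal cells, so replicate 2 lay further toward the ER- group than replicate 1. The 4 adult luminal libraries stood apart, with 4.73% to 7.07% mitochondrial transcripts against at most 3.26% elsewhere and the lowest depths. Replicate 2 of pregnancy ER- cells had 74762 over 9 ER- markers, against 385966 in replicate 1, and 0.615% mitochondrial transcripts. For basal samples of puberty and pregnancy the label of cell type says BC luminal cells, yet the basal keratin gene Krt5 lay between 9384 and 18170 in those libraries. In bulk samples of this kind, fewer cells of a type and less RNA per cell cannot be told apart.

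**Figure D1:**
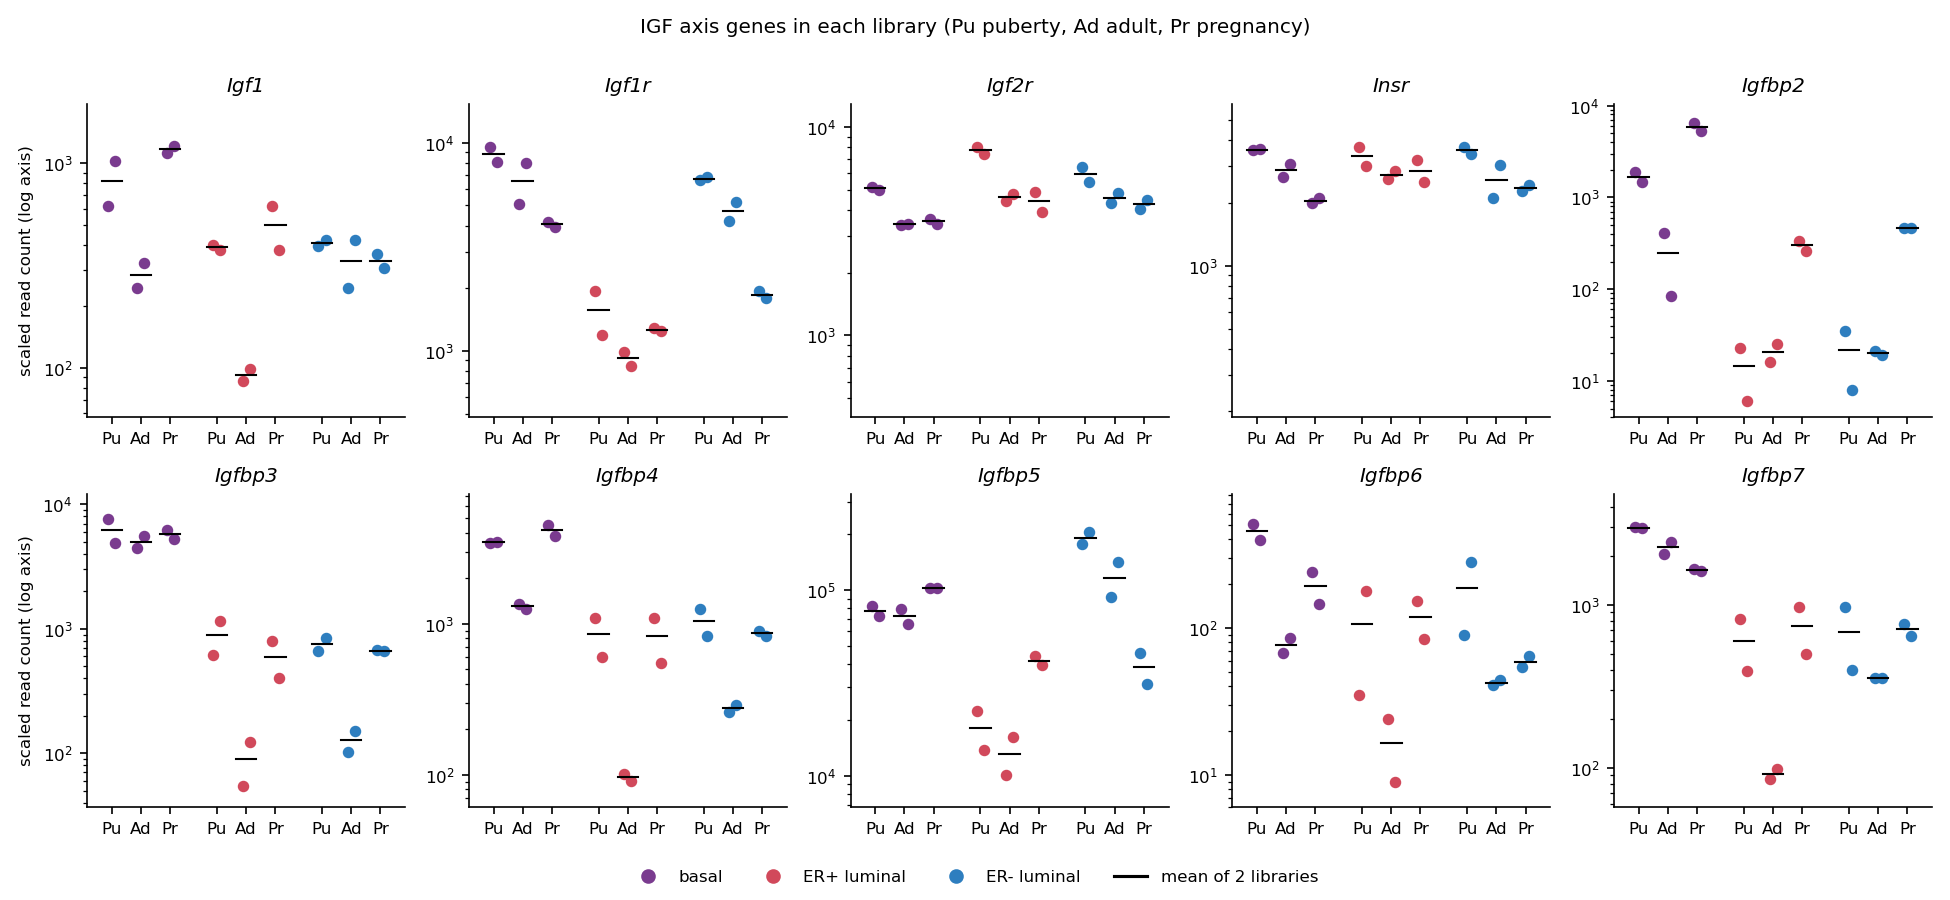
Scaled read count (log axis) of each of the 10 genes in all 18 libraries, by cell type and stage; points are libraries and lines are means of 2 libraries. Igfbp3 and Igfbp7 were lower in all 12 luminal libraries than in any of the 6 basal libraries, and Igfbp5 reached its highest values, 177058 and 206171, in ER- luminal cells at puberty.

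Per kilobase of exons, Igfbp5 made up most of the binding protein transcripts in each group, and its highest level was in ER- luminal cells at puberty. It lies on the minus strand of chromosome 1, 72857932 to 72874884 in GRCm38 (GENCODE; ENSMUSG00000026185), and encodes a secreted protein that also binds the extracellular matrix. Basal libraries had 82540 and 72595 at puberty, 79067 and 65522 in adults and 102958 and 103009 in pregnancy. In ER+ luminal libraries it stood at 22278 and 13795, 10153 and 16198, and 44210 and 39455 at these stages. The ER- luminal libraries held 177058 and 206171 at puberty, 92482 and 141719 in adults and 45938 and 31304 in pregnancy. By scaled read count, not set per kilobase, Igfbp5 had rank 2 among genes in both puberty ER- libraries, with 0.893% and 1.04% of the library.

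Into pregnancy Igfbp5 thus moved in opposite directions in the luminal populations. At puberty against adults Igfbp5 had positive log2 fold changes in both, 0.45 in ER+ and 0.74 in ER- cells, neither of them called. In pregnancy against puberty it rose by 1.25 ± 0.28 on the log2 scale (fold change ± SE) in ER+ cells (limma adjusted p = 0.00999) and fell by 2.33 ± 0.28 in ER- cells (adjusted p = 0.000279), and in both the libraries of the stages did not overlap. In basal cells the log2 fold change was 0.41 ± 0.28 (adjusted p = 0.614). Markers moved with the rise in ER+ cells in both replicates. The sum of 9 ER- markers, a list that holds milk protein genes, was 165414 and 378086 in pregnancy ER+ libraries against 13777 and 9074 at puberty, and that of 9 basal markers 33001 and 26642 against 12433 and 948. The sum of 10 ER+ markers was 92171 and 38215 in pregnancy ER+ libraries against 175744 and 222436 at puberty. Their part in the Igfbp5 result was not tested. The difference of the stage effects was 3.59 ± 0.39 for ER+ minus ER- cells (adjusted p = 0.000713) and 2.74 ± 0.39 for basal minus ER- cells (adjusted p = 0.0108). Without pregnancy ER+ replicate 2, the library furthest toward the ER- group, the first difference was 3.67 (adjusted p = 0.00353). The rise in ER+ cells missed the threshold without puberty ER+ replicate 2 (0.91, adjusted p = 0.109), pregnancy ER+ replicate 1 (1.17, adjusted p = 0.0678) or pregnancy ER+ replicate 2 (1.33, adjusted p = 0.0549). The second difference missed it without puberty ER- replicate 2 (2.64, adjusted p = 0.0729), pregnancy basal replicate 2 (2.74, adjusted p = 0.0566) or pregnancy ER- replicate 2 (2.47, adjusted p = 0.0647), and under quantile normalization (2.03, adjusted p = 0.0615).

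Between the luminal populations, Igfbp5 was lower in ER+ than in ER- cells at puberty (log2 fold change -3.45 ± 0.28, adjusted p = 1.05e-05) and in adults (-3.16 ± 0.28, adjusted p = 1.56e-05). In pregnancy the groups overlapped and the difference was 0.14 ± 0.28 (adjusted p = 0.885). In pregnancy against adults Igfbp5 rose by 1.70 ± 0.28 in ER+ cells (adjusted p = 0.0013) and fell by 1.59 ± 0.28 in ER- cells (adjusted p = 0.00389). Under quantile normalization, which gives all libraries the same set of values, the ER- change was -0.67 and missed the threshold (adjusted p = 0.184).

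Igf1r, the receptor tyrosine kinase gene, shared the contrast between the luminal populations. It lies on chromosome 7, 67952827 to 68233668, on the plus strand (ENSMUSG00000005533). Basal libraries had 9589 and 8062 at puberty, 5052 and 7974 in adults and 4179 and 3918 in pregnancy. In ER+ luminal libraries the values were 1950 and 1190, 993 and 850, and 1285 and 1250 at these stages. In ER- luminal libraries they were 6625 and 6813, 4220 and 5182, and 1938 and 1788. The 6 ER+ libraries and the 2 pregnancy ER- libraries were the lowest, at 1950 or less, and all others lay at 3918 or more.

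Igf1r was lower in ER+ than in ER- cells at puberty (-2.14 ± 0.22, adjusted p = 1.8e-05) and in adults (-2.35 ± 0.22, adjusted p = 7.35e-06). In pregnancy the difference was -0.55 ± 0.22 (adjusted p = 0.268). In pregnancy against puberty Igf1r fell by 1.12 ± 0.22 in basal cells (adjusted p = 0.0164) and by 1.85 ± 0.22 in ER- cells (adjusted p = 0.00012), with -0.27 ± 0.22 in ER+ cells (adjusted p = 0.523). The effect in ER+ cells minus that in ER- cells was 1.59 ± 0.32 (adjusted p = 0.0151). It was 1.61 without pregnancy ER+ replicate 2 (adjusted p = 0.0421) and missed the threshold without puberty ER+ replicate 2 (1.23, adjusted p = 0.0819), puberty ER- replicate 2 (1.57, adjusted p = 0.0709) or pregnancy ER- replicate 2 (1.53, adjusted p = 0.0789). The basal fall missed it without puberty basal replicate 1 (-0.99, adjusted p = 0.136), pregnancy basal replicate 1 (-1.17, adjusted p = 0.11) or pregnancy basal replicate 2 (-1.07, adjusted p = 0.154).

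The bases just before the RefSeq start of both genes, which fell together in ER- cells, and of the neighbour gene Igfbp2 are shown 5′ to 3′ in GRCm38.p6, for Igfbp2 at the first of its 2 starts. Motifs were sought in the 250 bases before a start, of which the last 150 are shown. For Igfbp5, whose window runs into the annotated gene, only the first 131 of these 150 are shown. The Igfbp5 sequence thus stops short of the RefSeq start, from which distances are counted. Capitals mark matches on either strand to the GC box with its letters GGGCGG, to the core of the TATA box with TATAAA, to the STAT site with TTCNNNGAA, to the AP-1 site with TGANTCA, or to the palindromic estrogen response element.
Igfbp5 (chr1:72874885-72875015, minus strand): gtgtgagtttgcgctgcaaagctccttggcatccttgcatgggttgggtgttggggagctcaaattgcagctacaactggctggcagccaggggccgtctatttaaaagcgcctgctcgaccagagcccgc
Igf1r (chr7:67952107-67952256, plus strand): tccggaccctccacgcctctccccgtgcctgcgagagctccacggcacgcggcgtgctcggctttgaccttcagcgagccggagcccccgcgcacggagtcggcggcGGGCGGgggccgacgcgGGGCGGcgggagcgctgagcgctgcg
Igfbp2 (chr1:72824330-72824479, plus strand): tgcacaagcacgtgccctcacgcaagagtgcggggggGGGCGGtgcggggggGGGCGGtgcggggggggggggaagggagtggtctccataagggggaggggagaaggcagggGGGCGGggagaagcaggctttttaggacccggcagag
The Igfbp5 window held none of these letters, and 1 match to the E-box CANNTG, 77 bases before the start. Igf1r held GC boxes 43 and 26 bases before the start, and Igfbp2 held 3 at 113, 98 and 37 bases. Of 32851 windows of 250 bases before RefSeq starts, 32.7% held a GC box, 12.4% a TATA box, 66.2% an E-box, 7.02% a STAT match, 6.75% an AP-1 match and 0.0639% an estrogen response element. The 250 bases were 58.8% G and C in Igfbp5 and 77.6% in Igf1r, against a median of 52.4% over all windows. Such matches describe letters and show no binding.

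Insr and Igf2r varied less than Igf1r. Insr, the insulin receptor gene, lies on chromosome 8, 3122061 to 3279617, on the minus strand (ENSMUSG00000005534). It ran from 1999 in pregnancy basal replicate 1 to 3742 in puberty ER+ replicate 1, and 7 of 8 pairs of neighbouring groups overlapped when groups were ordered by mean. Basal against luminal cells gave -0.05 ± 0.09 (adjusted p = 0.689). In pregnancy against puberty Insr fell by 0.81 ± 0.18 in basal cells (adjusted p = 0.0253) and by 0.60 ± 0.18 in ER- cells (adjusted p = 0.0333). Each call was lost whichever 1 of the 4 libraries compared was left out, the adjusted p then running from 0.127 to 0.199 in basal cells and from 0.111 to 0.153 in ER- cells.

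Igf2r, the clearing receptor gene, was highest at puberty. It lies on chromosome 17, 12682406 to 12769664, on the minus strand (ENSMUSG00000023830), and the antisense gene Airn overlaps it without sharing exon bases. Basal libraries had 5169 and 5004 at puberty, 3407 and 3441 in adults and 3616 and 3444 in pregnancy. The ER+ luminal values were 8076 and 7444, 4414 and 4784, and 4908 and 3904, and the ER- luminal values 6404 and 5468, 4315 and 4806, and 4065 and 4476. In each cell type both puberty libraries lay above those of the later stages. Pregnancy against puberty gave -0.53 ± 0.14 in basal cells (adjusted p = 0.0635), -0.82 ± 0.14 in ER+ cells (adjusted p = 0.000882) and -0.47 ± 0.14 in ER- cells (adjusted p = 0.0312). The ER- call was lost whichever 1 of its 4 libraries was left out (adjusted p from 0.0739 to 0.221). Over the stages Igf2r was lower in basal than in luminal cells (-0.37 ± 0.07, adjusted p = 0.00041).

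Set per kilobase of exons, so that genes can be compared, Igf1r exceeded Insr in basal cells and in ER- cells before pregnancy. The ratio of Igf1r to Insr was 2.0 ± 0.25 at puberty, 1.83 ± 0.398 in adults and 1.61 ± 0.137 in pregnancy in basal cells (SD, n = 2 each). In ER+ cells it was 0.375 ± 0.0733, 0.278 ± 0.0481 and 0.367 ± 0.0552. In ER- cells it was 1.54 ± 0.107, 1.51 ± 0.161 and 0.645 ± 0.0661, so the pregnancy ER- libraries had more Insr than Igf1r per kilobase, as the ER+ libraries did at all stages.

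Igf1 (ENSMUSG00000020053), on chromosome 10, 87858265 to 87937042, plus strand, had its highest mean in pregnancy basal cells and its lowest in adult ER+ cells. Basal libraries had 615 and 1028 at puberty, 247 and 324 in adults and 1117 and 1216 in pregnancy. The ER+ luminal libraries followed with 399 and 378, 86 and 99, and 621 and 375. The ER- luminal libraries had 396 and 420, 246 and 420, and 360 and 308, with overlap between adult and pregnancy values. Over the stages Igf1 was higher in basal than in luminal cells (1.08 ± 0.15, adjusted p = 3.92e-05). In pregnancy against adults it rose in basal cells (2.04 ± 0.31, adjusted p = 0.00166) and in ER+ cells (2.37 ± 0.31, adjusted p = 9.71e-05), while ER- cells gave 0.05 ± 0.31 (adjusted p = 0.948). At puberty it was likewise above the adult level in basal cells (1.49 ± 0.31, adjusted p = 0.00797) and in ER+ cells (2.06 ± 0.31, adjusted p = 0.000788). The basal call was lost without puberty basal replicate 2 (1.12, adjusted p = 0.0825).

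Fibroblast transcripts moved with Igf1, whose known source in this gland is the stroma, in pregnancy against adults in basal and ER+ cells. The sum of 8 fibroblast markers was 158555 and 145757 in pregnancy against 21635 and 16153 in adult basal libraries, and 81559 and 39691 against 8661 and 6890 in ER+ libraries. In ER- libraries it was 24661 and 21207 in pregnancy and 19232 and 23849 in adults. At puberty it was 66926 and 63994 in basal, 18304 and 61581 in ER+ and 14824 and 67526 in ER- libraries. There the replicates of ER+ and ER- cells differed widely in this sum while Igf1 was at 399 and 378 in ER+ and at 396 and 420 in ER- libraries. In ER- cells at puberty against adults Igf1 gave 0.34 ± 0.31 (adjusted p = 0.637). None of these 8 markers was at 0 in both libraries of a group. Their part in the Igf1 result was not tested.

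Igf2, the other ligand gene, had its highest values in pregnancy ER+ cells. ER+ libraries held 496 and 19 at puberty, 78 and 108 in adulthood and 34700 and 12642 in pregnancy. ER- libraries had 724 and 46 at puberty, 21 and 13 in adults and 1222 and 489 in pregnancy, and pregnancy basal libraries 844 and 395. In ER- cells Igf2 also rose in pregnancy against adults (limma, 5.46 ± 1.47, adjusted p = 0.035). It was not called in ER+ against ER- cells in pregnancy, nor in any difference of stage effects.

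Igfbp2 (ENSMUSG00000039323), on chromosome 1, 72824503 to 72852474, plus strand, and 5.46 kb from Igfbp5, was mainly a basal transcript that was highest in pregnancy. Basal libraries had 1879 and 1459 at puberty, 412 and 85 in adults and 6504 and 5242 in pregnancy. Values in ER+ luminal libraries were 23 and 6, 16 and 25, and 337 and 262, and ER- luminal libraries 35 and 8, 21 and 19, and 461 and 459. Adult and puberty luminal libraries thus held at most 35. The adult values were recovered as 2 and 3 reads in ER+ and 3 and 3 reads in ER- libraries, so the luminal rises below start near the floor. In pregnancy against adults Igfbp2 rose by 4.95 ± 0.74 in basal cells (adjusted p = 0.00233), by 3.83 ± 0.74 in ER+ cells (adjusted p = 0.00319) and by 4.46 ± 0.74 in ER- cells (adjusted p = 0.00239). Without adult basal replicate 1 or 2, which had 412 and 85, the basal value was 6.08 or 3.82 and remained called. With the compared groups alone it missed the threshold (adjusted p = 0.0573). Against puberty it rose by 4.52 ± 0.74 in ER+ cells (adjusted p = 0.00116) and by 4.68 ± 0.74 in ER- cells (adjusted p = 0.00132), and basal cells gave 1.82 ± 0.74 (adjusted p = 0.281). Its neighbour Igfbp5 gave 0.52 ± 0.28 in basal cells in pregnancy against adults (adjusted p = 0.269). The fibroblast marker sums of basal libraries, given above beside Igf1, were likewise lowest in adults and highest in pregnancy. Their part in the basal changes of Igfbp2 was not tested.

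Basal marker transcripts in the luminal libraries moved with Igfbp2. At puberty, Igfbp2 in ER+ and ER- cells stood at 0.869% and 1.29% of its basal level, and 9 basal markers at medians of 1.17% and 2.0%. Adult values were 8.25% and 8.05% for Igfbp2 and 1.67% and 2.41% for the markers. There adult basal libraries themselves had only 412 and 85 of Igfbp2, and each adult luminal library had only 2 or 3 recovered reads of it. In pregnancy Igfbp2 stood at 5.1% and 7.83%, and the markers at 8.25% and 10.6%. The sum of these markers was 26642 to 39213 in pregnancy luminal libraries against 2456 to 5312 in adult ones, with no marker at 0 in both libraries of a group, and their part in the luminal rise of Igfbp2 was not tested.

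**Figure D2:**
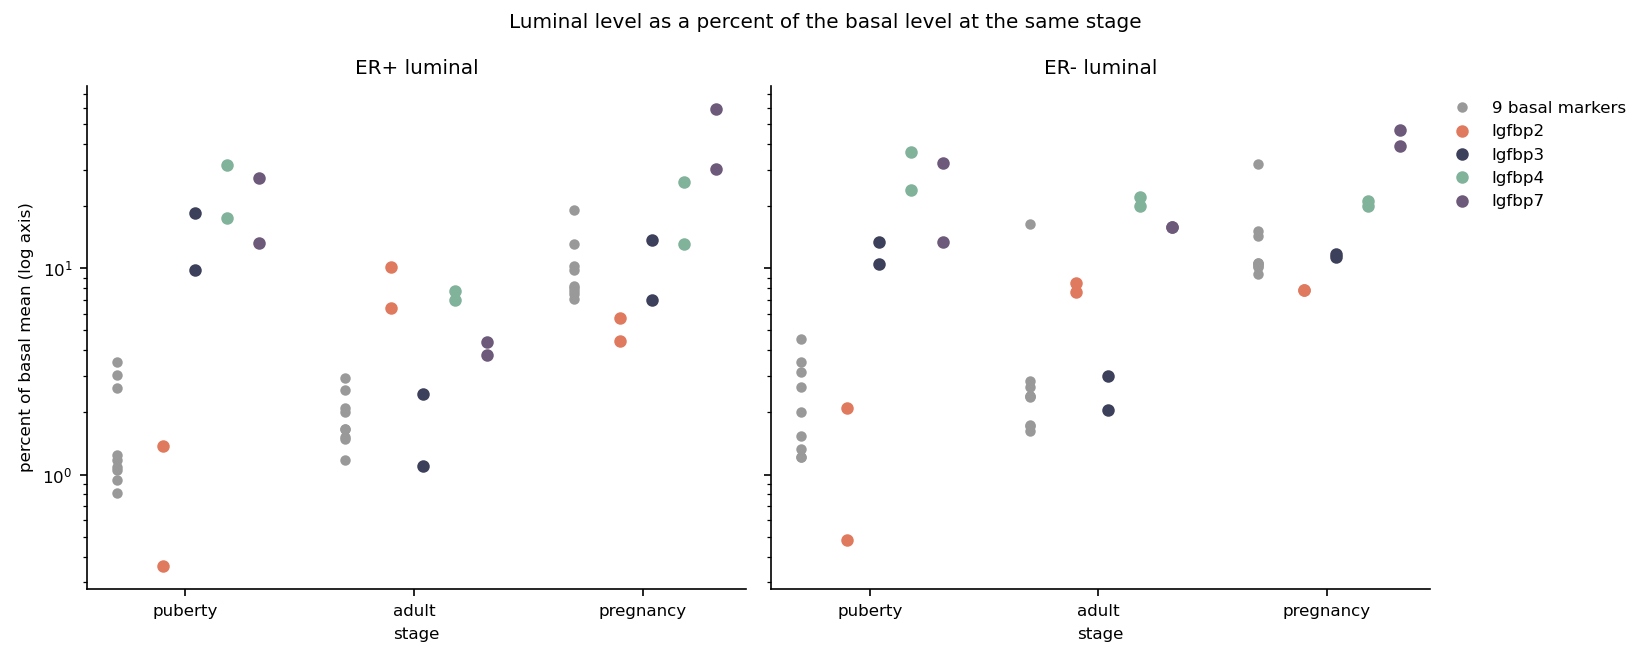
Luminal level as a percent of the mean basal level at the same stage (log axis), for ER+ and ER- luminal cells; coloured points are libraries for 4 binding protein genes and grey points are group means for 9 basal markers. Igfbp2 lay below the median marker in puberty and pregnancy, 5.1% against 8.25% in pregnancy ER+ cells, while Igfbp4 and Igfbp7 lay above the median marker in each luminal group.

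Igfbp3, Igfbp4 and Igfbp7 were basal-high genes with a low in adult luminal cells. Igfbp3 (ENSMUSG00000020427, chromosome 11, 7206086 to 7213923, minus strand) encodes the main carrier of IGFs in blood. Basal libraries had 7579 and 4920 at puberty, 4452 and 5569 in adults and 6284 and 5265 in pregnancy. Its ER+ luminal values were 616 and 1157, 55 and 124, and 793 and 404. Its ER- luminal values were 658 and 841, 103 and 151, and 677 and 661. Basal values overlapped between stages, whereas the adult luminal libraries lay below all other luminal libraries. Basal against luminal cells gave 3.92 ± 0.21 (adjusted p = 1.14e-08). In pregnancy against adults Igfbp3 rose by 2.76 ± 0.42 in ER+ cells (adjusted p = 0.000636) and by 2.41 ± 0.42 in ER- cells (adjusted p = 0.00312), with 0.21 ± 0.42 in basal cells (adjusted p = 0.797). At puberty against adults it was higher by 3.34 ± 0.42 in ER+ cells (adjusted p = 0.000379) and by 2.57 ± 0.42 in ER- cells (adjusted p = 0.00407).

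Igfbp4 (ENSMUSG00000017493, chromosome 11, 99041244 to 99054392, plus strand), a binding protein cut by PAPP-A, was low in adults in all cell types. Basal libraries had 3423 and 3485 at puberty, 1349 and 1252 in adults and 4515 and 3835 in pregnancy. The values in ER+ luminal cells were 1093 and 606, 101 and 91, and 1098 and 553. Those in ER- luminal cells were 1259 and 832, 260 and 289, and 889 and 834. Within each cell type the adult libraries did not overlap those of the other stages. Fibroblast markers moved with Igfbp4 in basal libraries. Their sum there was 66926 and 63994 at puberty, 21635 and 16153 in adults and 158555 and 145757 in pregnancy. The part of fibroblast transcripts in the basal changes of Igfbp4, given next with those of the luminal cells, was not tested. In pregnancy against adults it rose by 1.68 ± 0.30 in basal cells (adjusted p = 0.00482), 3.01 ± 0.30 in ER+ cells (adjusted p = 8.91e-06) and 1.65 ± 0.30 in ER- cells (adjusted p = 0.00302). At puberty against adults it was higher by 1.41 ± 0.30 in basal cells (adjusted p = 0.00978), 3.07 ± 0.30 in ER+ cells (adjusted p = 1.82e-05) and 1.90 ± 0.30 in ER- cells (adjusted p = 0.00207). In basal cells the pregnancy call was lost without adult replicate 2 (1.62, adjusted p = 0.0724) or pregnancy replicate 1 (1.56, adjusted p = 0.0647). The puberty call was lost there without puberty replicate 1 (1.42, adjusted p = 0.0768) or adult replicate 2 (1.36, adjusted p = 0.0689).

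The bases before the RefSeq starts of Igfbp3 and Igfbp4, which were low together in adult luminal cells, are shown with the same motifs in capitals.
Igfbp3 (chr11:7213924-7214073, minus strand): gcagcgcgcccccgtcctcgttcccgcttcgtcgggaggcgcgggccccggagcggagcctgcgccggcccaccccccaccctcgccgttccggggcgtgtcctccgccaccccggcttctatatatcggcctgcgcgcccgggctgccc
Igfbp4 (chr11:99041094-99041243, plus strand): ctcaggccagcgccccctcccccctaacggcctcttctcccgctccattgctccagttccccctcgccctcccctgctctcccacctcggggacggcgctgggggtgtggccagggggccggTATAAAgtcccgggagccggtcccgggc
The Igfbp4 window held a TATAAA match 28 bases before the start, and that of Igfbp3 held none of the letters marked by capitals.

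Igfbp7 (ENSMUSG00000036256, chromosome 5, 77349240 to 77408041, minus strand), a low-affinity relative of the binding proteins that is well known from blood vessels, was lowest in adult ER+ cells. Basal libraries had 2984 and 2956 at puberty, 2060 and 2438 in adults and 1667 and 1620 in pregnancy, and pregnancy against puberty missed the threshold (-0.85 ± 0.40, adjusted p = 0.37). ER+ luminal libraries had 814 and 394, 86 and 99, and 976 and 498, and the ER- luminal ones 966 and 397, 355 and 358, and 768 and 646. In ER+ cells Igfbp7 rose by 2.90 ± 0.40 in pregnancy against adults (adjusted p = 0.000256) and was 2.60 ± 0.40 higher at puberty against adults (adjusted p = 0.0014). In ER- cells pregnancy against adults gave 0.98 ± 0.40 (adjusted p = 0.114). Igfbp7 shares 85 exon bases, 7.03% of its exons, with Polr2b on the other strand. The strand used in counting is unknown, so reads there cannot be assigned.

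Igfbp6 (ENSMUSG00000023046, chromosome 15, 102144362 to 102149511, plus strand), which prefers IGF2, was low and uneven. Basal libraries had 510 and 397 at puberty, 68 and 85 in adults and 241 and 146 in pregnancy. In ER+ luminal libraries it was at 35 and 179, 24 and 9, and 153 and 84, and in ER- luminal libraries at 89 and 283, 41 and 44, and 54 and 64. It was higher in basal than in luminal cells over the stages (1.58 ± 0.34, adjusted p = 0.00163). The puberty rise against adults in basal cells (2.55 ± 0.69, adjusted p = 0.0302) was lost whichever 1 of the 4 libraries was left out (adjusted p from 0.0825 to 0.185). The pregnancy rise against adults in ER+ cells (2.86 ± 0.69, adjusted p = 0.00945) was lost without adult ER+ replicate 2 (2.19, adjusted p = 0.0994) or pregnancy ER+ replicate 1 (2.43, adjusted p = 0.0788).

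Endothelial and adipocyte transcripts were likewise lower in the adult luminal libraries than in any other. The sum of 8 endothelial markers ran from 4938 to 14372 in basal libraries, from 1323 to 11339 in the 8 luminal libraries of puberty and pregnancy and from 587 to 1207 in the 4 adult luminal libraries. The sums of 7 adipocyte markers in these 3 sets were 2486 to 31438, 1336 to 19276 and 87 to 288. For 6 pericyte markers they were 8947 to 13397, 5423 to 10287 and 4911 to 5554, and for 8 fibroblast markers 16153 to 158555, 14824 to 81559 and 6890 to 23849. In the pericyte and fibroblast lists adult luminal libraries overlapped the other luminal libraries. In both adult ER+ libraries Cldn5, Kcnj8, Lep and Retn were at 0, and in both adult ER- libraries Plin1. In pregnancy both libraries of a group had none of Adipoq in basal and ER+ cells, none of Cidec in ER+ cells and none of Retn in ER- cells.

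Replicates at puberty differed in such transcripts. Puberty ER+ replicate 1 had 3057 of the endothelial gene Pecam1 against 202 in replicate 2, and 814 against 394 of Igfbp7. It also had 12433 against 948 over the basal markers and 13394 against 2212 over the adipocyte markers. Replicate 2 instead had more of the fibroblast gene Dcn, 11866 against 4767, and 1157 against 616 of Igfbp3. The part of other cell types in the differences of Igfbp3, Igfbp4 and Igfbp7 between adult and other luminal libraries was not tested, and these differences cannot be told apart from the other ways in which the adult luminal libraries stood apart. Set against basal markers, Igfbp3 stood at 14.2% of its basal level in puberty ER+ cells, above each of the 9 basal markers, which reached at most 3.51%. In adults it lay inside their range, at 1.79% with markers from 1.17% to 2.95% in ER+ cells and at 2.53% with markers from 1.63% to 16.5% in ER- cells. In pregnancy it did so again, at 10.4% with markers from 7.07% to 19.2% in ER+ cells and at 11.6% with markers from 9.41% to 32.1% in ER- cells. Basal markers thus moved with the luminal rise of Igfbp3 in pregnancy against adults, and their part in it was not tested.

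**Figure D3:**
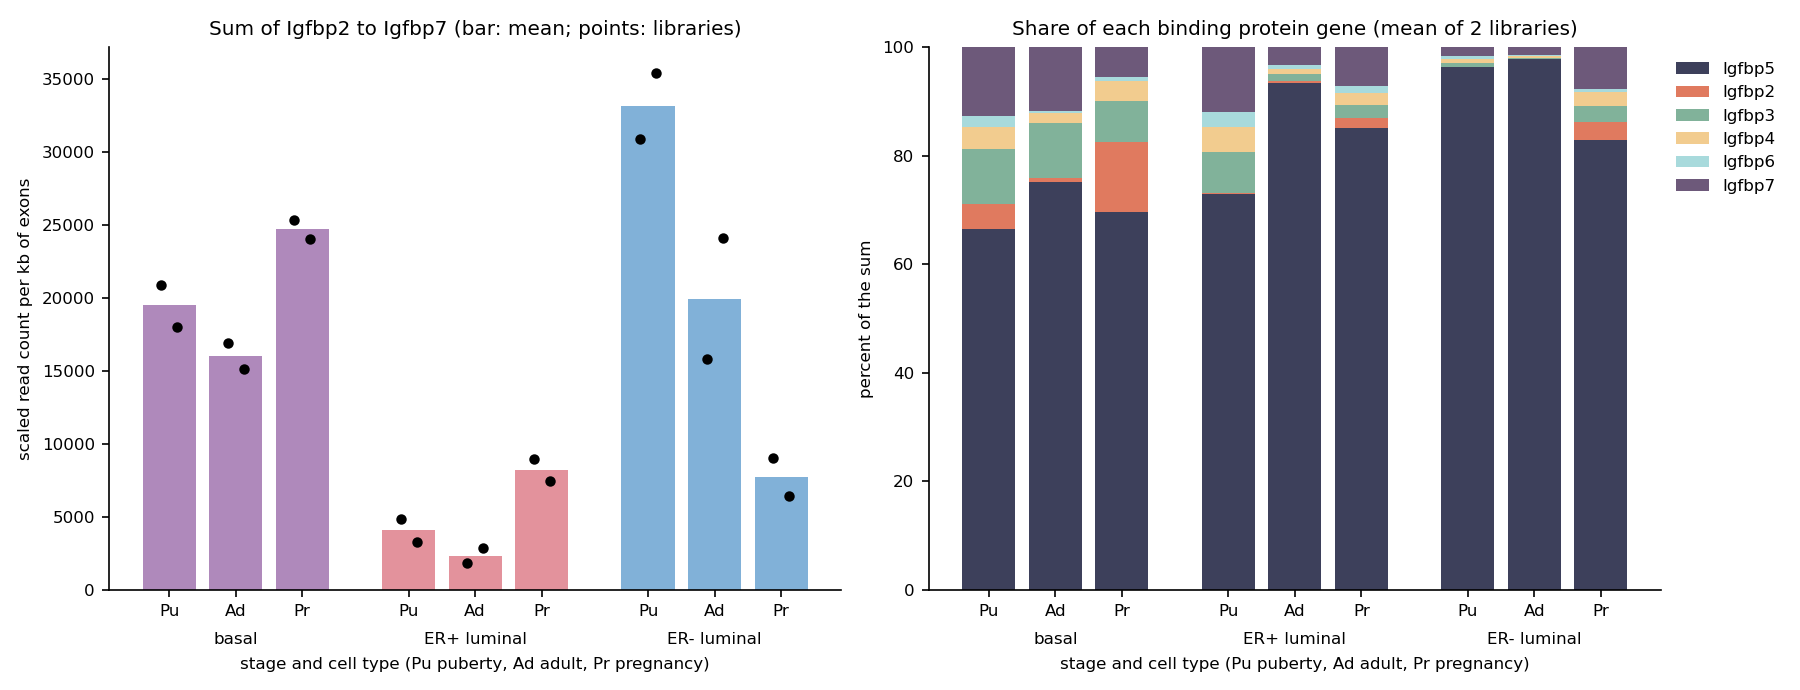
Left, sum of the 6 binding protein genes in scaled read counts per kilobase of exons (bars are means, points are libraries); right, percent of that sum for each gene (means of 2 libraries). Igfbp5 made up 66.4% to 75.1% of the sum in basal cells, and in ER- cells 82.9% in pregnancy against 96.3% at puberty.

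Per kilobase of exons, the mix of the binding protein genes was led by Igfbp5 in each group. The share of Igfbp5 was 66.4% ± 0.844, 75.1% ± 4.1 and 69.6% ± 2.58 of the sum in basal cells at puberty, in adults and in pregnancy (SD, n = 2 each). In ER+ cells it made up 72.9% ± 4.54, 93.3% ± 1.43 and 85.0% ± 4.43, and in ER- cells 96.3% ± 1.1, 97.7% ± 0.586 and 82.9% ± 2.98. Igfbp2 took 12.9% ± 1.49 in pregnancy basal cells, against 0.813% ± 0.719 in adult basal cells. At puberty basal cells had 10.2% ± 2.04 of Igfbp3 and 12.7% ± 1.23 of Igfbp7. The sum itself was 33100 ± 3180 scaled reads per kilobase in ER- cells at puberty, 19900 ± 5820 in adults and 7730 ± 1800 in pregnancy.

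**Figure D4:**
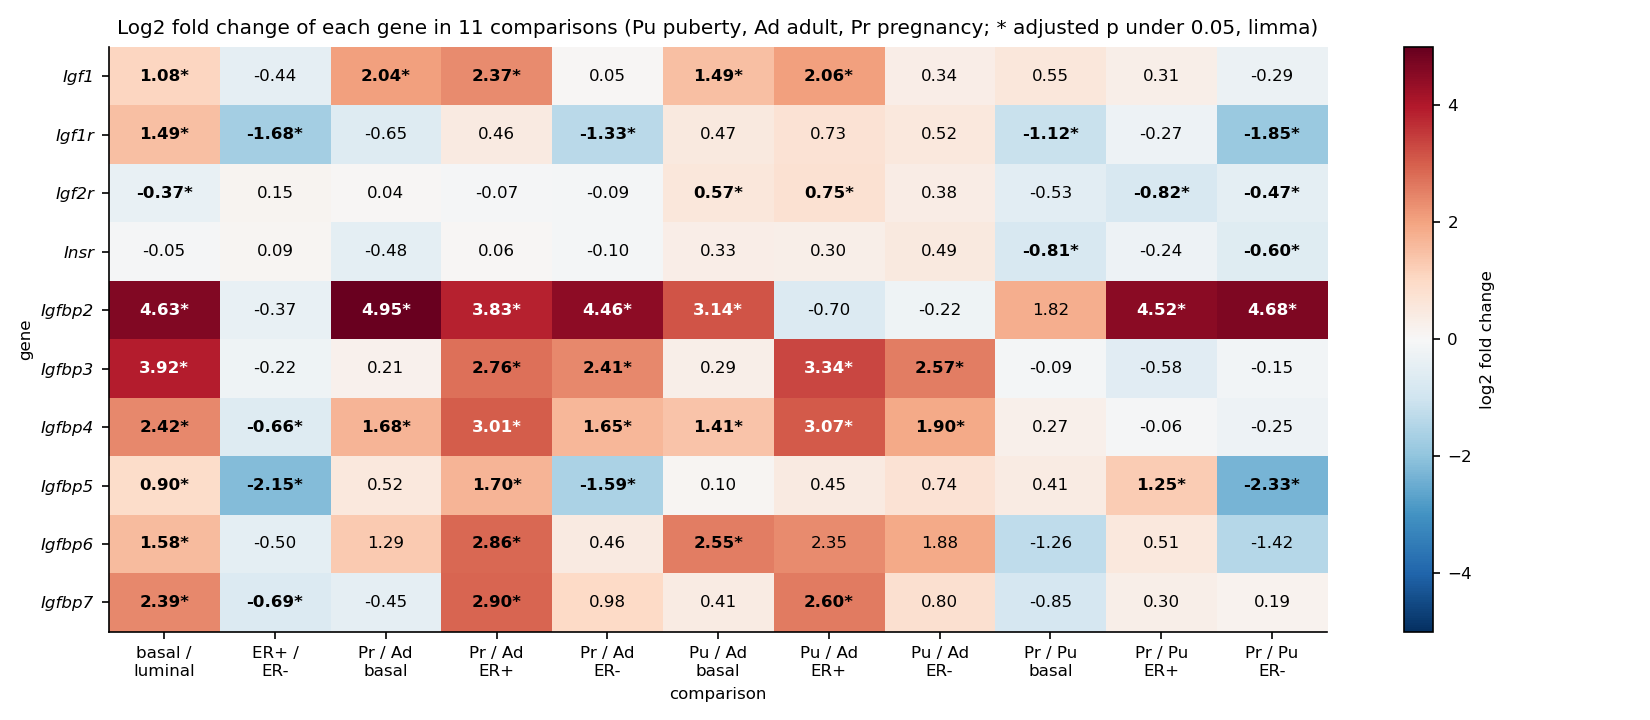
Log2 fold change of each gene (rows) in 11 comparisons (columns), from limma on log2(value + 1); the first group named is on top of the fold and bold values with a star had an adjusted p under 0.05. The column of basal against luminal cells, which uses all 18 libraries, has the most stars, in 9 of 10 genes. There 20.9% of all genes were higher and 21.5% lower. Igfbp5 is 1.25 in ER+ and -2.33 in ER- cells for pregnancy against puberty.

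Counted by comparison, basal against luminal cells had the most genes of the axis called. That comparison used all 18 libraries, with an SE of 0.11 for Igf1r against 0.22 between stages of a cell type. It also had the most calls over all genes, so its count does not set the axis apart from other genes by rank. Of the 10 genes, 8 were higher and 1, Igf2r, was lower in basal cells, against 20.9% of all 22315 genes higher and 21.5% lower. Their median log2 fold change was 1.53, and that of all genes -0.03. Besides the genes given above, Igf1r (1.49 ± 0.11), Igfbp2 (4.63 ± 0.37), Igfbp4 (2.42 ± 0.15), Igfbp5 (0.90 ± 0.14) and Igfbp7 (2.39 ± 0.20) were higher in basal cells. The luminal side here is the mean of ER+ and ER- cells, and Igfbp5 was not higher in basal cells against each of them. In ER- cells Igfbp5 stood at 247% of its basal level at puberty, 162% in adults and 37.5% in pregnancy. In ER+ cells it stood at 23.3%, 18.2% and 40.6%. Igf1 in adult ER- cells stood at 117%. Without the 6 adult libraries, with their distinct luminal members, and likewise without the 6 pregnancy libraries, the count was again 9, and Igfbp7 was at 1.78 and 2.97. In ER+ against ER- luminal cells 0 were higher (10.3% of all genes) and 4 lower (15.2%): Igf1r (-1.68 ± 0.13), Igfbp4 (-0.66 ± 0.17, adjusted p = 0.0106), Igfbp5 (-2.15 ± 0.16) and Igfbp7 (-0.69 ± 0.23, adjusted p = 0.0394). The median was -0.47, and -0.11 over all genes. Without the 6 adult libraries 2 were called, with Igf1r at -1.35 and Igfbp5 at -1.65, while Igfbp4 was at -0.24 (adjusted p = 0.577) and Igfbp7 at -0.07 (adjusted p = 0.915). Igfbp7 also lost its call when any of 14 single libraries was left out, with adjusted p up to 0.115.

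Within stages, ER+ against ER- cells had 0 genes higher (5.59% of all genes) and 2 lower (6.84%) at puberty, which were Igf1r and Igfbp5. In adults 0 were higher (5.49%) and 5 lower (11.5%). These were Igf1r, Igfbp5, Igf1 (-1.79 ± 0.31, adjusted p = 0.00105), Igfbp4 (-1.51 ± 0.30, adjusted p = 0.00317) and Igfbp7 (-1.94 ± 0.40, adjusted p = 0.00482). In pregnancy limma called 0 higher (1.64%) and 0 lower (0.211%), with 1 at an unadjusted p under 0.05, and edgeR called 0, with 2 at an unadjusted p under 0.05. Without pregnancy ER+ replicate 2, Igf1r was at -0.53 (adjusted p = 0.393) and Igfbp5 at 0.22 (adjusted p = 0.859) there. The lack of calls does not show that the populations were alike.

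In pregnancy against adults 7 of the 10 genes rose in ER+ cells (12.8% of all genes) and 0 fell (5.05%), with a median log2 fold change of 2.57 beside 0.21 over all genes. In ER- cells 3 rose (8.89%) and 2 fell (5.51%), the falls being Igfbp5 and Igf1r (-1.33 ± 0.22, adjusted p = 0.00181), with medians of 0.26 and 0.09. In basal cells 3 rose (2.92%) and 0 fell (4.34%), with medians of 0.36 and -0.09. Without pregnancy ER+ replicate 2, the library furthest toward the ER- group, 7 rose in ER+ cells again, with Igfbp4 at 3.50 and Igfbp5 at 1.79. Puberty against adults gave 5 higher (4.5%) and 0 lower (1.22%) in ER+ cells, 2 higher (2.42%) and 0 lower (1.24%) in ER- cells, and 5 higher (4.58%) and 0 lower (5.15%) in basal cells. The medians were 1.41, 0.63 and 0.52 in these cell types, and 0.07, 0.04 and -0.02 over all genes. These comparisons share the adult libraries with those of pregnancy. Not given above are Igf2r, higher by 0.57 ± 0.14 in basal cells (adjusted p = 0.0178) and by 0.75 ± 0.14 in ER+ cells (adjusted p = 0.0036), and Igfbp2, higher by 3.14 ± 0.74 in basal cells (adjusted p = 0.0189). Of the 5 basal calls, 1 held without puberty replicate 1, puberty replicate 2 or adult replicate 2, and 3 held without adult replicate 1. Igf2r lost its basal call in all 4 cases (adjusted p from 0.0556 to 0.136), and Igfbp2 without either puberty replicate (2.95 and 3.32) or adult replicate 2 (2.00, adjusted p = 0.161).

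Pregnancy against puberty, which leaves the adult libraries out of the contrast, gave 2 higher (7.34%) and 1 lower (5.73%) in ER+ cells. It gave 1 higher (8.78%) and 4 lower (6.04%) in ER- cells, and 0 higher (0.668%) and 2 lower (1.4%) in basal cells. Medians were 0.12, -0.38 and -0.31, against 0.13, 0.03 and -0.02 over all genes. Without pregnancy ER+ replicate 2, Igf2r (-0.66) and Igfbp2 (4.70) remained called in ER+ cells. In ER- cells 3 of 5 calls held whichever 1 of the 4 libraries compared was left out. In basal cells 0 held without puberty replicate 1 or either pregnancy replicate, and 1 without puberty replicate 2. The differences of these effects were higher for 2 genes (1.47%) and lower for 0 (0.847%) in ER+ minus ER- cells, and higher for 1 (0.43%) and lower for 0 (0.197%) in basal minus ER- cells. For basal minus ER+ cells limma called 0 higher (0.453%) and 0 lower (1.18%), with 3 at an unadjusted p under 0.05, and edgeR called 0, likewise with 3. Without puberty ER+ replicate 1, limma called 1.

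Of 44 other genes of the pathway, 42 passed the filter, all but Igfbp1 and Igfbpl1, and several that act on the binding proteins differed. In basal against luminal cells 12 of the 42 were higher and 14 lower, beside 20.9% and 21.5% of all genes, with a median log2 fold change of -0.05. Pappa, the protease gene whose product cuts IGFBP4, was higher by 4.36 ± 0.38 (adjusted p = 3.12e-06), and Htra1, a secreted serine protease gene, by 3.04 ± 0.18 (adjusted p = 6.17e-09). Pappa2 (3.52 ± 0.63) and the endocytic receptor gene Lrp1 (2.64 ± 0.10) were higher as well. Pappa2 was low, with 26 to 86 in basal libraries and 0 in each adult luminal library. Its highest value, 109, was in puberty ER+ replicate 1. In ER+ against ER- cells 7 were higher and 15 lower, beside 10.3% and 15.2% of all genes, led by the adaptor gene Grb14 (2.38 ± 0.18), Stc2, whose product inhibits PAPP-A (2.31 ± 0.55), Irs4 (-1.81 ± 0.57) and Stc1 (-1.55 ± 0.22). Irs4 had at most 18 in any library.

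Pappa and Stc2 changed in opposite directions in pregnancy ER+ cells. Pappa had 3742 and 1877 in pregnancy ER+ libraries, against 92 and 13 at puberty, and basal libraries had 3086 and 2378 in pregnancy, against 5327 and 5012 at puberty. Stc2 had 390 and 265 in pregnancy ER+ libraries, against 24109 and 29721 at puberty. The libraries of the stages did not overlap for either gene. Pregnancy against puberty in ER+ cells gave 7 of the 42 higher and 7 lower, beside 7.34% and 5.73% of all genes, with Igf2 at 7.71 ± 1.47 (adjusted p = 0.00633), Pappa at 6.20 ± 0.75 (adjusted p = 0.000311), Igfals, the gene of a subunit of the circulating IGF complex, at 5.74 ± 0.55 (adjusted p = 1.5e-05) and Stc2 at -6.38 ± 0.96 (adjusted p = 0.00171). Without pregnancy ER+ replicate 2, which leaves a single library in that group, Igf2 was at 8.44, Pappa at 6.70, Igfals at 5.52 and Stc2 at -6.10. Fewer of the 42 were then called, and no share of all genes is given here for that fit. The effect on Pappa differed in basal minus ER+ cells (-7.13 ± 1.06, adjusted p = 0.00816). In ER- cells 6 were higher and 9 lower, beside 8.78% and 6.04% of all genes, including Igfals (3.82 ± 0.55), Pappa (2.65 ± 0.75) and Stc2 (-3.52 ± 0.96). In basal cells 1 was higher and 3 lower, beside 0.668% and 1.4%, with Igfals at 3.13 ± 0.55.

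ER+ cells in pregnancy against adults had 11 of the 42 higher and 4 lower, beside 12.8% and 5.05% of all genes. In ER- cells 10 were higher and 5 lower, beside 8.89% and 5.51%, and in basal cells 3 and 3, beside 2.92% and 4.34%. At puberty against adults 7 were higher and 0 lower in ER+ cells, beside 4.5% and 1.22% of all genes. In ER- cells 3 were higher and 1 lower, beside 2.42% and 1.24%, and in basal cells 5 and 2, beside 4.58% and 5.15%. Grb10, an adaptor gene that restrains IGF1 and insulin receptor signals, was higher at puberty in all these cell types, by 2.44 ± 0.29 in ER+, 2.07 ± 0.29 in ER- and 1.68 ± 0.29 in basal cells.

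Likeness to other genes was measured as Pearson's r of log2 group means over the 9 groups among 10463 genes, as a description without a test. Igf1r was most like Tmem154 (0.993) and Zfyve9 (0.992), and Igfbp5 was most like Car12 (0.962) and Efna5 (0.959). Igf1 lay nearest to Emilin1 (0.99) and Lama2 (0.971), genes of the extracellular matrix. For Igfbp2 the nearest was Slc25a4 (0.996), for Igfbp3 Aoc3 (0.993), for Igfbp4 Ndn (0.988), for Igfbp6 Sod3 (0.981) and for Igfbp7 Epas1 (0.987). Igf2r (Ube3a, 0.954) and Insr (Mier1, 0.947) had the least close neighbours.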

How the data were processed

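The members and gene lists were chosen with earlier results of these data known. The deposited data were a single table, with signal in whole numbers for each gene in each library. Its totals (19819213 to 19881049) and its steps, which differ by library, were read as counts that the authors scaled to 20000000 and then rounded up. Inverting that rounding gave 99.76% to 99.95% of non-zero values back, against 12.1% to 57.0% by chance. The step of each library was fitted to make that share highest. A stricter step test was met by 3 libraries and missed by 15, so depths and edgeR results of those 15 rest on the inferred rounding. Per the submitters' processing notes, STAR, Picard and HTSeq were used with GRCm38. The sources used here give no versions, strand setting or duplicate handling. Libraries were made with the Ovation Solo kit from total RNA, per the labels' protocols.

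Groups were compared on log2(value + 1) by limma 3.58.1 (R 4.3.3, intensity trend, robust option) over 22315 genes with at least 10 in at least 2 libraries, with 1 mean per group, 9 residual degrees of freedom, 2-sided, with Benjamini-Hochberg adjustment over all tested genes and a threshold of 0.05. Fold changes on this scale understate changes of low genes. edgeR 4.0.16 on the recovered reads was an alternative. The steps were checked on simulated data. ER+ against ER- within a stage was added after seeing the data. Named were all members, up to 4 called pathway genes with the largest change per comparison, of which a part is printed, and the nearest genes by correlation. Single library values of Igf2, Pappa, Stc2 and Igfals were chosen after seeing them. Positions are from GENCODE vM21 and windows before starts from RefSeq GRCm38.p6, where 9 of 10 members were matched (all but Insr). Bases inside the annotated gene were left out of the Igfbp5 sequence shown, but not of its motif search or its share of G and C. Figures were drawn with matplotlib 3.10.9 and tables made with pandas 2.3.3 and numpy 2.4.6 under Python 3.11.15. The immune marker list is not reported here.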

Additional observations from a re-analysis of the deposited data

Results flagged for a closer look

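In 2 genes the effect of pregnancy against puberty differed between cell types by a test of the difference itself. For Igfbp5 the effect in ER+ minus that in ER- luminal cells was 3.59 ± 0.39 on the log2 scale (limma adjusted p = 0.000713), with both pregnancy ER+ libraries above, and both pregnancy ER- libraries below, their puberty counterparts. The effect in basal minus that in ER- cells was 2.74 ± 0.39 (adjusted p = 0.0108). For Igf1r the effect in ER+ minus ER- cells was 1.59 ± 0.32 (adjusted p = 0.0151). Causes were not tested.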

How the results depend on the processing

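The 60 calls of members were recomputed under 1757 alternatives in all, of which 1677 kept the call, 80 lost it and 0 reversed its direction. Other pseudocounts, filters, median-ratio and upper-quartile factors kept all 60, and edgeR lost 2. The replicate block kept all 60 calls too. Over all tested genes same-numbered libraries deviated little together (r from -0.0884 to 0.269 over 36 pairs of groups, 1 above 0.1), so they were not taken as pairs. At puberty, however, replicates of ER+ and of ER- cells differed in the same direction in some marker sums. Basal markers had 12433 and 948 in ER+ and 13746 and 3264 in ER- libraries. Fibroblast markers had 18304 and 61581, and 14824 and 67526. The sums of ER+ and of ER- markers did not. Whether these libraries shared a preparation was not tested. Single libraries aside, numbers of members called moved by over 1.5 times as follows. Without the 6 adult libraries, ER+ against ER- cells had 2 in place of 4. With no trend and no robust step, counts were 3 in place of 5 for puberty against adults in basal cells, 3 in place of 5 for pregnancy against puberty in ER- cells, 0 in place of 2 in basal cells, and 1 in place of 2 for the difference of ER+ minus ER- cells. With the compared groups alone, puberty against adults in basal cells had 2 and pregnancy against puberty in basal cells had 7. The calls over all genes moved likewise. For puberty against adults they were 380 higher and 351 lower of 19292, against 1023 and 1149 of 22315 in the main fit. For pregnancy against puberty they were 857 and 1098 of 18467, against 149 and 312. Under quantile normalization the difference of basal minus ER- cells had 0 in place of 1, beside 152 of all genes higher and 55 lower, against 96 and 44. Among smaller moves, ER+ against ER- cells had 3 in place of 4 under quantile normalization, with no trend, with the compared groups alone and by edgeR. With the compared groups alone, calls lost included Igfbp3 (adjusted p = 0.0578) and Igfbp6 (0.0762) in pregnancy against adults in ER+ cells, Igfbp2 in basal cells (0.0573) and Igf2r in puberty against adults in ER+ cells (0.0685). Basal against luminal cells uses all groups, so no such fit was run. Leaving out 1 library gave 1 to 5 for puberty against adults in basal cells, 3 to 5 and 0 to 3 for pregnancy against puberty in ER- and basal cells, and 1 to 2, 0 to 1 and 0 to 1 for the differences of ER+ minus ER-, basal minus ER- and basal minus ER+ cells. For pregnancy against adults in ER+ cells, the all-gene median was 0.21 with 2865 genes higher and 1126 lower, and under quantile normalization -0.11 with 1896 and 1907. That scaling gave 3101 higher and 2729 lower for ER+ against ER- cells, and 4162 and 6486 for basal against luminal cells. The causes were not tested. With 2 libraries a group, small differences could not be resolved.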
